A study of Mus musculus with 4 samples.

Results

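Peaks of METTL3, the methyltransferase subunit of the complex that places N6-methyladenosine (m6A) on RNA, were examined around the genes Klf2, Klf4 and Klf5 in mouse embryonic stem cells. A peak belonged to a locus when its centre lay within 100 kb of the gene body on mm10. By this rule 5 of the 353 peaks of immunoprecipitation (IP) replicate 1 and 4 of the 281 peaks of IP replicate 2 were members. They fell on 5 distinct sites, 4 at Klf4 and 1 at Klf5, and Klf2 had none.

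The series holds 4 chromatin immunoprecipitation sequencing (ChIP-seq) libraries from C57BL/6 wild-type cells. A pair was precipitated with a rabbit anti-METTL3 antibody and a pair was input, 1% of the sonicated chromatin with no antibody. All were grown in serum-containing medium with 1000 U/ml LIF, 3 μM CHIR99021 (a GSK3 inhibitor) and 1 μM PD0325901 (a MEK inhibitor), and fixed with 1% formaldehyde. The labels do not state that the replicates were separate cultures, so their spread may be technical. No library without METTL3 or with a control antibody was analysed here, and peak lists hold no expression values against which the cell type could be checked. IP libraries held 22246555 and 21793898 tags, and the inputs about 24800000 and 14900000. The caller set IP replicate 1 against input replicate 1 and IP replicate 2 against input replicate 2.

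KLF proteins are zinc finger transcription factors that bind GC-rich and CACCC-type DNA elements. In mouse embryonic stem cells KLF2, KLF4 and KLF5 have overlapping roles in holding the naive pluripotent state. Klf4, also one of the classical reprogramming factors, is switched on by LIF through STAT3, and active ERK signalling marks KLF2 protein for degradation. Klf4 is known to be controlled in these cells by a distal enhancer region downstream of the gene.

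None of the 9 peaks lay inside or at the start of a Klf gene. The stretches of 250 bases before the annotated starts of Klf2 and Klf4 are shown because these promoters held no listed peak in either replicate. Both are from RefSeq (GRCm38.p6), 5′ to 3′ on the strand of the gene, with GC boxes (GGGCGG or CCGCCC, either strand) in capitals. Klf5 is not among the promoters used here, and the bases under the peaks were not analysed here.
Klf2 promoter, chr8:72318812-72319061, plus strand: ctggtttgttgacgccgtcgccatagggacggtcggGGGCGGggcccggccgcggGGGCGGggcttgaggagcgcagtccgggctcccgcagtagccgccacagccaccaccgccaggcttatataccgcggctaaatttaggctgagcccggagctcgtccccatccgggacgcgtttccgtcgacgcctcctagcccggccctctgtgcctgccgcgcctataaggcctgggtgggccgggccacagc
Klf4 promoter, chr4:55532476-55532725, minus strand: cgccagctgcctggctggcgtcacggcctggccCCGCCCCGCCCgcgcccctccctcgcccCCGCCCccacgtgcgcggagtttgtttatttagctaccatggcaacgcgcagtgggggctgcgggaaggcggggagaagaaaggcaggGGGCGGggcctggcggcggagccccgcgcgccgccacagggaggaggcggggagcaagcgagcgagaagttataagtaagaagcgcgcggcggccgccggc
The Klf2 stretch held 2 GC boxes and the Klf4 stretch held 4, of which a neighbouring pair overlaps by a base. At least 1 GC box was present in 32.7% of 32851 RefSeq promoter stretches of the same length. As many as before Klf2 were present in 16.7% of them, and as many as before Klf4 in 4.09%. The CACCC box (CACCC or GGGTG, either strand) occurred once before Klf2 and was not found before Klf4, against 52.0% of all such stretches. GC content was 71.2% and 74.0%, and the median over all stretches was 52.4%. These matches are descriptions of the letters and not binding sites.

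METTL3 peaks at Klf4 were all on the downstream side of the gene, and 3 of the 4 were found in both replicates. Klf4 (gene 16600, chr4:55527137-55532475) lies on the minus strand, so downstream is toward lower coordinates. From the farthest to the nearest, the peaks of replicate 1 had their centres 62.6, 51.6, 49.6 and 11.1 kb from the gene. Those of replicate 2 were at 62.5, 51.6 and 49.6 kb. The first 3 sites of replicate 1 formed a group, with gaps of 11.0 and 2.02 kb between neighbouring centres, and gaps of 10.9 and 2.06 kb in replicate 2. The site at 11.1 kb stood 38.5 kb away from this group. The group ran over 13.2 kb (chr4:55464440-55477664), on the side of the gene where its known distal enhancer region lies, and enhancer marks were not measured here.

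**Figure D1:**
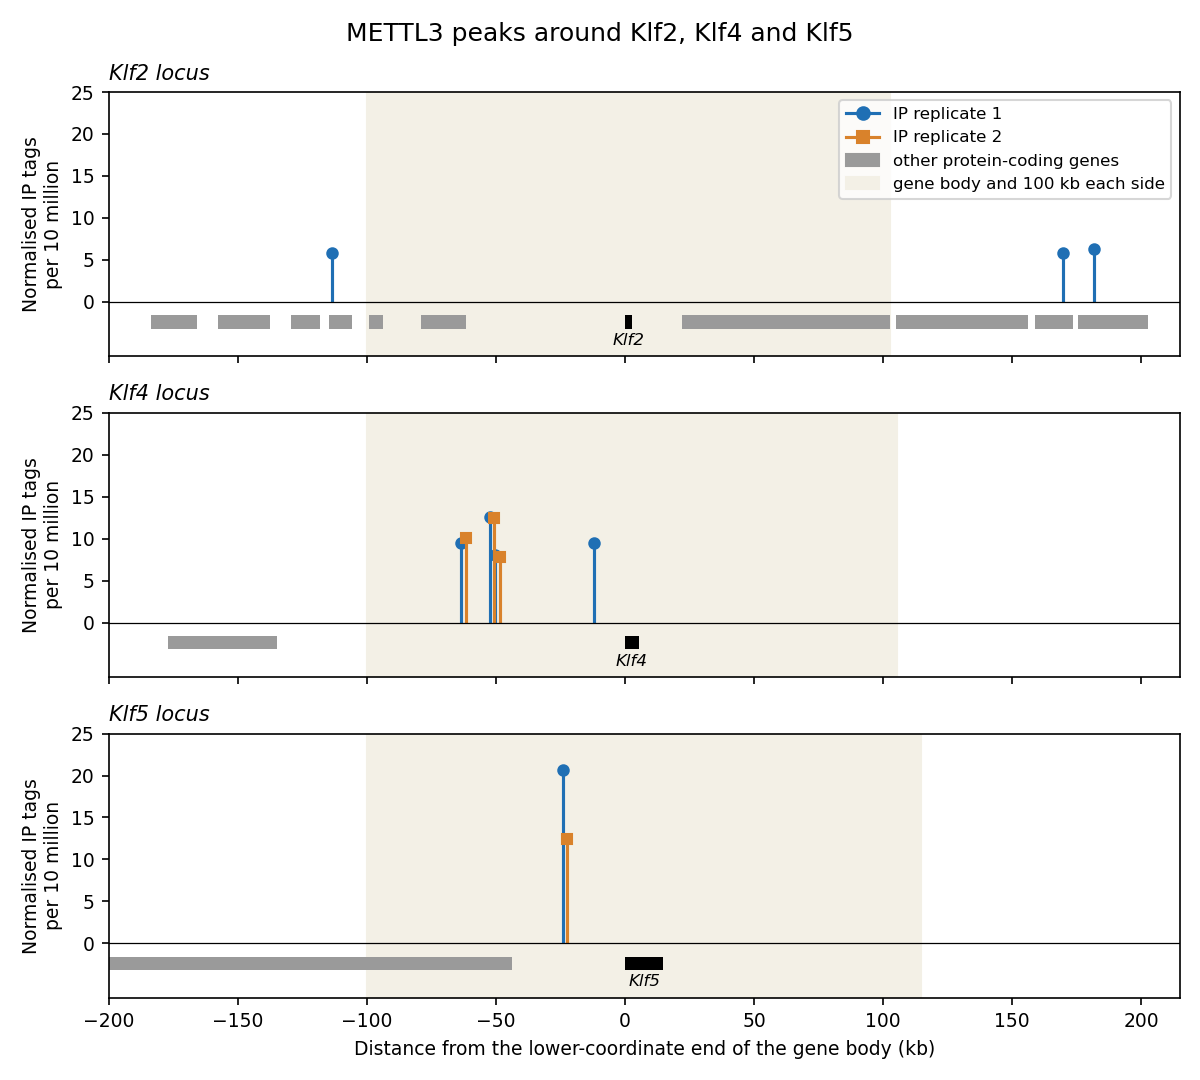
Peaks around the Klf2, Klf4 and Klf5 gene bodies, with distance from the lower-coordinate end of the gene in kb on the horizontal axis and normalised IP tags per 10000000 tags on the vertical axis. Blue circles are replicate 1, orange squares replicate 2 (offset slightly sideways), black boxes the Klf gene, grey boxes other protein-coding genes, and the shaded band the gene body and 100 kb on each side. The band holds 5 and 4 peaks, all below the gene start coordinate at Klf4 and Klf5 and none at Klf2.

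No other protein-coding gene overlapped the 100 kb around Klf4. Klf4 was the nearest protein-coding gene of all its peaks, ahead of Rad23b, a DNA repair gene on the far side that lay 72.3 kb from the site at 62.6 kb. The annotated gene nearest to the 3 grouped sites was Gm22150, a small nucleolar RNA gene of 135 bases (chr4:55469025-55469159). It sat between the sites, 4.50 kb from the one at 62.6 kb and 6.37 kb from the one at 51.6 kb. All 4 sites were intergenic.

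The site 51.6 kb from Klf4 was the tallest of the locus in both replicates. Heights are the authors' normalised tag counts, in IP tags per 10000000 tags of the library. At this site (chr4:55475439-55475609) replicate 1 stood at 12.6 and replicate 2 at 12.4, a mean of 12.5 ± 0.141 (SD, n = 2). Input, put on that scale, had 1.08 ± 0.382. Behind these values stood 28 and 27 IP tags and 2 input tags in each replicate. The site was 15.6-fold over input in replicate 1 (exact 95% interval 3.94 to 135) and 9.20-fold in replicate 2 (2.31 to 79.9). Each listed peak was called for an excess over the same input, so the folds of single sites are descriptions. Its centres lay 7 bases apart in the 2 lists.

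The site at 62.6 kb (chr4:55464440-55464610) measured 9.44 and 10.1, a mean of 9.77 ± 0.467 (SD, n = 2), from 21 and 22 IP tags and 2 input tags in each replicate. It exceeded input 11.7-fold in replicate 1 (2.86 to 103) and 7.50-fold in replicate 2 (1.84 to 65.8). This was the pair of peaks that matched least closely in position, with centres 83 bases apart and an overlap of 87 bases. The site at 49.6 kb (chr4:55477457-55477627) was the lowest of the group, at 8.09 and 7.80, or 7.95 ± 0.205 (SD, n = 2). It held 18 and 17 IP tags against 3 and 2 input tags, 6.69-fold (1.95 to 35.5) and 5.79-fold (1.38 to 51.7) over input.

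The order of the 3 grouped sites was the same in both replicates, and their heights did not overlap between sites. Counting error was wider than these gaps. In replicate 1 the 95% Poisson interval of the height was 8.36 to 18.2 at 51.6 kb, 5.84 to 14.4 at 62.6 kb and 4.80 to 12.8 at 49.6 kb. All 3 intervals overlap, so these do not tell the sites apart within a library.

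The site closest to Klf4, at 11.1 kb (chr4:55515991-55516161), was listed in replicate 1 alone. There it measured 9.44 from 21 IP tags and 2 input tags, 11.7-fold over input (2.86 to 103). Its height equalled that of the site at 62.6 kb in the same library, which was found in both. Among the peaks of replicate 1 that replicate 2 lacked, the median was 15 IP tags, and 26 of 158 had at least 21. Of all 141 peaks of replicate 1 with at least 21 tags, 115 were shared. Its level in replicate 2 is unknown, since a list gives no value for a site that was not called. Called peaks had a caller's score of at least 14 and went down to 12 IP tags in both lists.

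**Figure D2:**
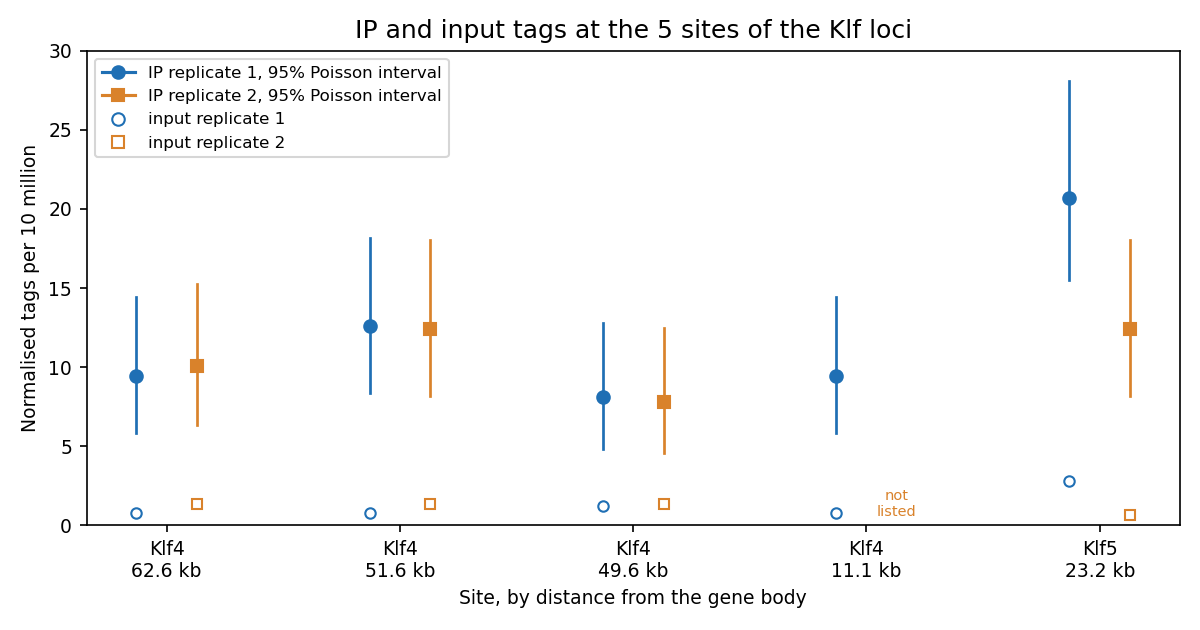
Normalised tags per 10000000 tags (vertical axis) at the 5 sites (horizontal axis), with filled symbols for IP and open symbols for input, blue circles for replicate 1 and orange squares for replicate 2. Bars are exact 95% Poisson intervals of the IP tags. IP lies between 7.80 and 20.7 and input between 0.673 and 2.82, and the site at 11.1 kb has no value in replicate 2.

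At Klf5 a single site was found in both replicates and was the tallest Klf site of replicate 1. Klf5 (gene 12224) lies at chr14:99298691-99313412. The peak (chr14:99275411-99275581 in replicate 1) was 23.2 kb from the gene in both lists, at lower coordinates, with centres 42 bases apart. Replicate 1 reached 20.7 and replicate 2 reached 12.4, a mean of 16.6 ± 5.87 (SD, n = 2), while input had 1.75 ± 1.52. The site lay between genes, 20.6 kb from Pibf1 and thus slightly closer to Pibf1, which encodes a centrosome-linked protein, than to Klf5. Whether either gene is its target was not tested.

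At the Klf5 site both the IP and the input counts were higher in replicate 1. Replicate 1 held 47 IP tags and 7 input tags, and replicate 2 held 27 IP tags and 1 input tag. The fold over input therefore ran the other way, at 7.49 in replicate 1 (3.36 to 19.6) and 18.4 in replicate 2 (3.03 to 754). These intervals overlap, and the difference in input was not tested. The 7 input tags of replicate 1 were reached or passed by 13 of its 353 peaks.

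**Figure D3:**
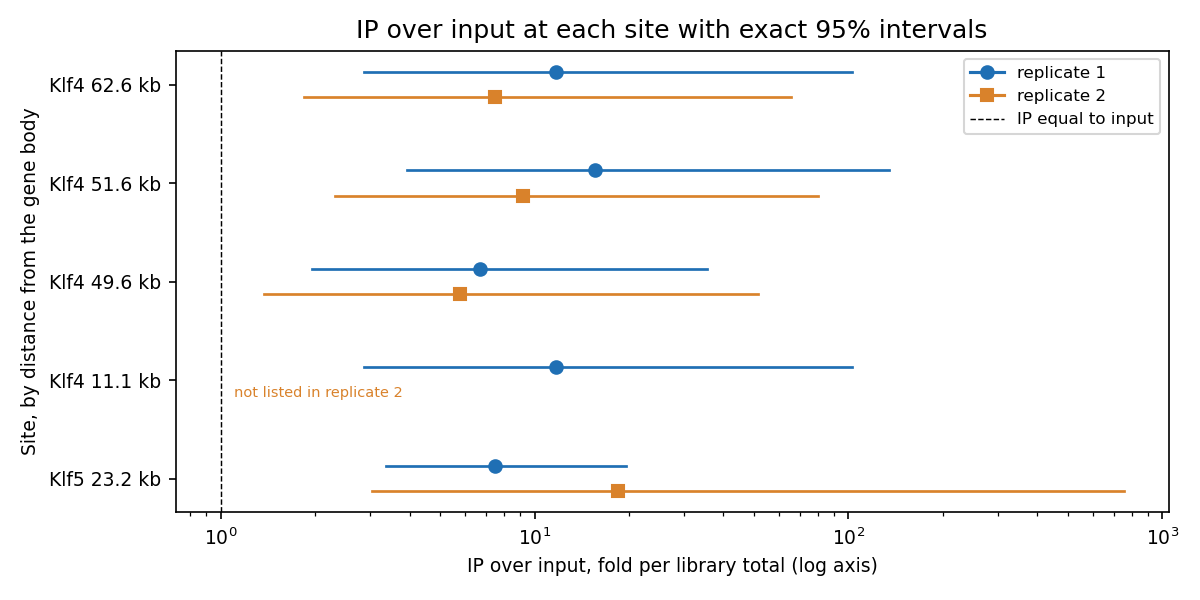
Fold of IP over input per library total (horizontal log axis) at each site (vertical axis), for replicate 1 in blue and replicate 2 in orange, with exact 95% intervals as bars. The dashed line marks equal IP and input. All 9 intervals lie above 1 and all intervals of one site overlap, with the upper ends set by 1 to 7 input tags. The peaks were called for an excess over this input, so intervals above 1 are a description and not a test.

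IP tags at the shared sites did not pass a test of difference between the 2 libraries. An exact conditional binomial test with library totals as offsets, two-sided, was run on all 195 shared peaks with Benjamini-Hochberg adjustment. The adjusted threshold of 0.05 was passed by 0 of 195 (0%), and 4 (2.05%) had an unadjusted p under 0.05. The Klf5 site was one of these, 1.71 times as high in replicate 1 (95% interval 1.04 to 2.85, exact test, p = 0.0271, adjusted p = 1). The Klf4 sites at 51.6, 49.6 and 62.6 kb had ratios of 1.02 (0.577 to 1.79), 1.04 (0.504 to 2.14) and 0.935 (0.489 to 1.78), each with an adjusted exact p of 1. The test compares these libraries, and its intervals still allow differences near 2-fold, and at Klf5 above it. Only peaks called in both lists could be tested. The 158 peaks listed in replicate 1 alone, with the Klf4 site at 11.1 kb among them, and the 86 in replicate 2 alone were left out. The count of 0 therefore does not speak for the lists as a whole.

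Klf2, which encodes the third naive-state factor of the family, had no METTL3 peak within 100 kb in either list. Klf2 (gene 16598, chr8:72319062-72321654, plus strand) is the shortest of the 3 genes, at 2593 bases, and the one with most neighbours. Its window overlapped 3 other protein-coding genes, Fam32a, Ap1m1 and Eps15l1, against 0 at Klf4 and 1 at Klf5. The nearest peak of replicate 1 lay 112.8 kb upstream, inside Cib3 (chr8:72206167-72206337), with 13 IP tags and no input tag, a height of 5.84. Further out in replicate 1 were peaks 168 kb downstream, inside Slc35e1 (5.84, 3.62-fold over input, 1.12 to 15.3), and 180 kb downstream, inside Med26 (6.29, 15.6-fold, 2.38 to 660). These 3 were all lower than any peak at Klf4 or Klf5, and replicate 2 had none of them.

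The nearest peak of replicate 2 to Klf2 was 778 kb away and the nearest shared peak 5747 kb away. The farthest member peak, at 62.6 kb from Klf4, and the Cib3 peak, at 112.8 kb from Klf2, were the values on either side of the 100 kb limit. The surrounding 10 kb held 2.68 to 2.89 IP tags per peak width at these 3 chromosome 8 peaks of replicate 1. It held 2.02 to 2.47 at the Klf4 and Klf5 peaks of replicate 1, with a median of 2.12 over the list and 2.66 over chromosome 8. In replicate 2 the called Klf4 peaks at 51.6 and 49.6 kb had 2.72 and 2.85, like the replicate 1 peaks near Klf2. The Klf4 peak at 62.5 kb had 2.05 and the Klf5 peak 2.03. The medians of replicate 2 were 1.95 over the list and 2.66 over chromosome 8. The part of this local density in the calls near Klf2 was not tested. The lists give no value for sites that were not called, so METTL3 near Klf2 was not detected by these calls, which does not show that it is absent.

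Klf4 was among the few genes of the series with at least 3 peaks nearby. At least 1 peak within 100 kb was counted for 4.16% of 21883 protein-coding genes in replicate 1, 3.24% in replicate 2 and 2.25% with shared peaks, and for 2 of the 3 Klf genes in each case. At least 3 were counted for 0.0503%, 0.0411% and 0.0366%, respectively. Klf4, with 4, 3 and 3, was among them, and was the only one of these protein-coding genes with 4 in replicate 1. With shared peaks these were 8 genes, and Rad23b counted the same 3 peaks as Klf4. Since the loci were proposed with earlier results known, these counts are a description.

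Sharing between replicates was also set against the whole lists. Of the member peaks of replicate 1, 4 of 5 overlapped a peak of the other list by at least 1 base, with 55.2% for all its peaks. In replicate 2 it was 4 of 4, with 69.4% for all. Sharing was more frequent among taller peaks. Of those with at least 21 IP tags, 115 of 141 were shared in replicate 1 and 114 of 123 in replicate 2. The share of the members was not set against peaks of equal height. A fold over input of at least 8 was held by 3 of 5 (50.7% of all peaks) and 2 of 4 (71.9%). This was above the level of the list in replicate 1 and below it in replicate 2, on few peaks. With that minimum in both lists only the Klf4 site at 51.6 kb remained shared.

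By height, the Klf5 site took rank 19 of 353 in replicate 1 and rank 63 of 281 in replicate 2. The Klf4 site at 51.6 kb took ranks 67 and 63, where it tied with Klf5 in replicate 2. The site at 62.6 kb was at ranks 121 and 101, and that at 49.6 kb at 170 and 171. The medians of all peaks were 8.09 and 8.72, so the lowest Klf4 site sat at the median of replicate 1 and below that of replicate 2.

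**Figure D4:**
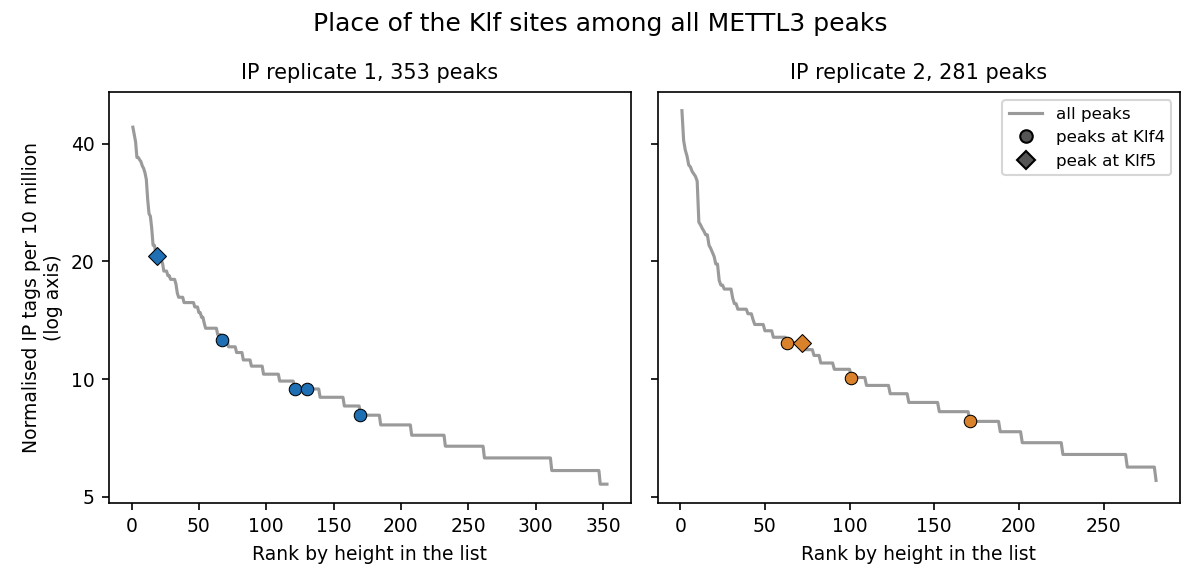
Height of every peak in normalised IP tags per 10000000 tags (vertical log axis) against its rank in the list (horizontal axis), for replicate 1 on the left and replicate 2 on the right. The grey line is all peaks, circles are Klf4 and the diamond is Klf5, with tied peaks drawn side by side. Klf5 stands at rank 19 and 63, and the Klf4 peaks run from rank 67 to 170 and from rank 63 to 171.

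Summed over each locus, heights were 39.6 and 30.3 at Klf4 (34.9 ± 6.55, SD, n = 2), 20.7 and 12.4 at Klf5 (16.6 ± 5.87), and 0 listed at Klf2. The replicates of Klf4 and Klf5 did not overlap in this sum. Both loci were measured in the same 2 libraries, too few for a test. The sum follows the number of peaks called, which covered 684 and 507 bases at Klf4 and 171 and 169 at Klf5. Per peak, Klf4 averaged 9.89 and 10.1, below Klf5 in both replicates. With shared peaks alone, Klf4 came to 30.2 ± 0.120 (n = 2). Over the 4 shared sites 207 IP tags stood against 21 input tags, 8.88-fold (5.66 to 14.6), which describes peaks that were called for an excess over input.

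Peak shape was given by the focus ratio, the authors' fraction of tags on the expected strand side of the centre. It was 0.773 and 0.771 at the 51.6 kb site of Klf4, 0.818 and 0.714 at 62.6 kb, 0.815 and 0.645 at 49.6 kb, 0.828 at 11.1 kb, and 0.869 and 0.771 at Klf5. The list medians were 0.815 and 0.818, so all 4 member peaks of replicate 2 were below the median of their list. Over the surrounding 10 kb the authors' fold was highest at Klf5, 19.0 and 13.3, and ran from 5.96 to 11.7 at Klf4, beside medians of 9.03 and 10.4.

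Among 23 other genes of the Klf and Sp family, a list chosen with earlier results of these data known, 1 had a peak within 100 kb in each replicate and as a shared peak (4.35%, beside 2.25% of all protein-coding genes with a shared peak). It was Klf9, a glucocorticoid-responsive member of the family, with a site 46.1 kb away (chr19:23095040-23095210) of 12.1 and 11.5 (11.8 ± 0.424, SD, n = 2). Its height lay between those of the Klf4 sites at 51.6 and 62.6 kb.

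Of 27 upstream and partner genes of the LIF and naive network, chosen in the same way, 9 had a peak within 100 kb in replicate 1, 10 in replicate 2 and 8 a shared one. The last count is 29.6% of the list, beside 2.25% of all protein-coding genes. In the signalling pathway that feeds the Klf genes, the LIF receptor gene Lifr had a shared site 8.56 kb away, at 12.1 and 12.8 (12.5 ± 0.495, SD, n = 2), as tall as the tallest at Klf4. Tcf7l1, a repressor of the network that Wnt signalling relieves, had one 65.5 kb away at 10.8 and 8.26 (9.53 ± 1.80). Among partner factors, shared sites stood near Tfcp2l1, Esrrb, Sox2, Prdm14, Zfp42 and Myc, with mean heights from 9.08 to 22.9. Il6st, Jak1, Jak2 and Stat3, which carry the LIF signal, had no peak within 100 kb in either list, nor did Socs3, its feedback inhibitor.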

How the data were processed

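Peak lists of 2 METTL3 IP libraries were used. Input was known from the input column of each list. HOMER's findPeaks (factor style) called peaks in each IP library against its own input, per the file headers, at a false discovery rate of 0.001, with a tag threshold of 14 for putative peaks, p-values of 0.0001 and a fold of 1 over input and the local 10 kb, and at most 1 tag per position. Scores of listed peaks began at 14, but 42 and 18 listed peaks had 12 or 13 IP tags. Trimmomatic 0.38, Bowtie 1.2.2, CASAVA, HOMER and mm10 are named in the submitters' processing notes. How reads were aligned is not given in the sources used here. Deposited values were the normalised tag count, a signal per 10000000 tags, the focus ratio, a fraction, and the authors' score, fold ratio and p-value per peak. The deposited total tags of replicate 1 are counts, and those of replicate 2 a signal scaled to its input. Whole tags and input totals were recovered from these columns, and IP tags of replicate 1 were taken from its total tags, which differ from the normalised column by up to 2 tags in 25 peaks (47 against 46 at Klf5).

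Distances run from the peak centre to the RefSeq GRCm38.p6 gene body, 1-based. Intervals of folds and tag ratios are exact conditional binomial and cover counting error only. The replicate test was tested on simulated tags at 195 shared peaks, 40 of them changed. It called 19 of the 40 at 2-fold with 1 unchanged peak, all 40 at 4-fold with 0 unchanged peaks, and 0 peaks with no change. The tags were drawn as Poisson counts, and changes were a rise in replicate 1. No calling step and no further spread between libraries were simulated, so these counts hold for that setting only. Replicates of the same number were not shown to share a culture. Python 3.11.15, numpy 2.4.6, scipy 1.17.1, pandas 2.3.3 and matplotlib 3.10.9 were used. The rule for named genes took the Klf genes, the nearest protein-coding gene of each peak and listed genes with a shared peak. Other neighbours (Rad23b, Gm22150, Fam32a, Ap1m1, Eps15l1, and Cib3, Slc35e1 and Med26 beyond 100 kb), Kat6b, Mettl14 and the LIF signalling genes without a peak were named in addition, with their values known. The members and lists were chosen with earlier results of these data known.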

Additional observations from a re-analysis of the deposited data

How the results depend on the processing

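The mean number of member peaks per list was 4.5. It fell to 2.5 within 50 kb and to 2.5 with a fold of at least 8, and stayed within 1.5 times at 200 kb, at a score of at least 20 and without either replicate. The 4 shared peaks became 2 within 50 kb and 1 where both lists had to reach a fold of 8, and did not move by more than 1.5 times under the other overlap rules, at 200 kb or at a score of at least 20. The IP over input fold of the shared sites was 8.88. It was 9.07 with the replicate number as a block, 9.06 to 9.08 in single replicates, and 12.4 for the 1 site left at a fold of at least 8. The summed height at Klf4 was 34.9, and 30.2 with shared peaks only. The replicate test called 0 shared peaks with tags in all shared peaks as library size, and 0 with tags from the normalised column, which was chosen after seeing the data. Between 1 and 7 input tags per peak limit each fold.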

Other observations

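Shared peaks were also joined into groups when neighbouring centres lay within 15 kb (this limit was set with the peaks in view). Of the 195 shared peaks, 16 fell into 6 groups, of which 4 held 3 peaks each. The widest of these 4 was the one downstream of Klf4, over 13.2 kb and with a summed height of 30.1 in replicate 1. Its largest gap between centres was 11.0 kb in replicate 1, so a limit below that would split this group. Of the others, a group was nearest to Sox2 (12.8 kb wide, summed height 35.0) and another to the histone acetyltransferase gene Kat6b (11.8 kb, 23.4). The last overlapped Mettl14, the gene of the partner of METTL3 (9.03 kb, 29.7). The groups at Klf4 and Sox2, both pluripotency factor genes, lay 49.5 and 92.9 kb from the gene, and the Kat6b group 12.8 kb.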
